A study of Ulmus minor with 54 samples.

Results

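In the field elm, Ulmus minor, 58 of 237477 assembled sequences were lower in leaves with beetle larvae than in leaves without them at 6 h and again at 24 h, and these 58 transcripts are described here. They were chosen from their measured values. A sequence was a member if its median lay between 2 and 300 CPM (read counts scaled to a common library size) over the 18 untreated libraries of both sets and if simulated eggs had moved it by less than 0.8 (log2) at 1 h. Both log2 ratios of fed over unfed leaves, without and with earlier simulated eggs, also had to be at or under -0.8 at 6 h and under 0 at 24 h. The level left 29546 sequences, the egg ratio 28654, the 6 h ratios 63 and the 24 h ratios 58. The deposited identifiers are assembly names (C for contig, or scaffold), and the files do not pair them with gene names, so no function is given to any member.

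As background, a leaf that is bitten releases jasmonate-type hormones, and within hours the messages of defence proteins rise while many messages of photosynthesis and growth fall. A message that falls can be made more slowly, degraded faster, or belong to cells that were eaten. Many leaf messages also rise and fall with the hour of the day under the plant's circadian clock. In whole leaf tissue, fewer cells of a type and less RNA per cell cannot be told apart.

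The 54 libraries were made from polyadenylated leaf RNA of wild-type elms grown in a greenhouse from a clonal culture and aged about 15 to 19 weeks, with 3 libraries in each of 18 groups. In the priming set, leaves treated with simulated eggs (P) and untreated leaves (C) were taken 1, 6 and 24 h after treatment. Simulated eggs were a scratch of 1.5 cm by 1 mm in the epidermis that received oviduct secretion of killed elm leaf beetle females; the untreated leaves were not scratched, so P differed from C by both. In the triggering set, 7 days after the onset, leaves received 5 newly hatched larvae (CT), larvae after simulated eggs (PT), simulated eggs only (PC) or nothing (CC), and were taken 1, 6 and 24 h later. About 100 mg of tissue around the treated site went into each library. Hours are counted from the stimulus, and the labels do not give the time of day at harvest. The labels do not say whether the libraries of a group came from separate trees, so the p-values measure the spread between these libraries.

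Some libraries stood apart. CT 24 h replicate 1 held 14667334 reads, of which its 10 most abundant sequences took 80.3%, and it was left out throughout, so CT at 24 h has n = 2. The other 53 libraries held 28916592 to 93878963 reads, and 24609 to 219096 reads of each fell on the 58 transcripts. The share of the 10 most abundant sequences was 6.82 to 41.6% in fed leaves at 1 h against 9.97 to 19.2% in unfed leaves. At 6 h these ranges were 9.01 to 58.5% and 5.68 to 32.6%, and at 24 h 9.17 to 51.5% and 8.60 to 23.5%. The median share in fed and unfed leaves was 13.8 and 12.8% at 1 h, 30.7 and 15.7% at 6 h, and 28.1 and 12.6% at 24 h, with overlapping ranges at each hour. Its part in the results was not tested. C 6 h replicate 1 gave 32.7% of its reads to 10 sequences, against 12.4 and 13.7% in the other C 6 h libraries. In PC 1 h replicate 3, the CPM (plus 0.5) of 8 of the 58 members (13.8%) was at least 4-fold above both other PC 1 h libraries, against 0.115% of the 28654 sequences of the same level and egg window.

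The values that chose the members are given as a description. The median log2 ratio at 6 h was -1.04 for CT over CC (range -2.61 to -0.81) and -1.06 for PT over PC (range -1.93 to -0.81). At 24 h the medians were -1.41 (range -3.20 to -0.11) and -1.36 (range -3.32 to -0.27). Ratios are between group medians of CPM plus 0.5. The fall deepened in most members: in 35 of 58 both ratios were lower at 24 h than at 6 h, in 11 both were higher, and 12 were mixed. In 10 members both 24 h ratios were at or under -2. The simulated egg ratio at 1 h had a median of -0.27 (range -0.79 to 0.58) and was below 0 in 42 members. The member nearest the limit was C450357, with 6 h ratios of -0.81 and -0.91, and the nearest sequence outside was C450935, with -0.80 and -0.83.

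In the fit over all transcripts (edgeR's quasi-likelihood test over 156137 transcripts, with a call where the Benjamini-Hochberg adjusted p did not exceed 0.05), the falls at 6 h were called for 13 members in CT over CC, where 0.0794% of all transcripts were called lower. In PT over PC 8 members were called, with 0.441% of all, and 4 members in both. At 24 h the counts were 32 for CT over CC (4.28% of all called lower; CT 24 h replicate 1 left out, n = 2) and 40 for PT over PC (4.54%), with 30 in both. The rule used these contrasts, so the shares are given without a reading. Most members were thus chosen on median ratios that did not pass the test at 6 h, with 3 libraries a group.

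The 2 members with the lowest rule value were C549525 and scaffold1712. At 6 h C549525 stood at 201, 228 and 123 CPM in CC (replicates 1, 3 and 4) and at 60.2, 17.7 and 58.1 CPM in CT. In the leaves with earlier eggs it stood at 178, 92.7 and 237 CPM in PC and at 46.2, 27.4 and 138 CPM in PT. All 3 CT libraries lay below all CC libraries, while PT replicate 3 lay above PC replicate 2. At 24 h the levels of C549525 were 209.5, 363 and 117 CPM in CC against 20.7 and 37.5 in CT (n = 2), and 265, 169.8 and 239.9 CPM in PC against 23.5, 57.4 and 8.19 in PT, with no overlap between fed and unfed leaves. Transcript scaffold1712 had smaller differences, with 89.1, 98.5 and 55.8 CPM in CC and 43.5, 21 and 32.5 CPM in CT at 6 h. In PC and PT at 6 h scaffold1712 was at 94.1, 50.6 and 98 and 29.9, 21 and 77.6 CPM, so PT replicate 3 again overlapped PC.

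The untreated level of the members (median CPM over the 18 C and CC libraries, not scaled for length) ran from 2.03 to 241, with a median of 10.2; 7 members were at or over 50 CPM and 16 under 5 CPM. The 2 highest on this scale were scaffold24712 and C530423. Transcript scaffold24712 was low at 6 h and less so at 24 h. It stood at 271, 356 and 299 CPM in CC and 147, 98.1 and 125 CPM in CT at 6 h, which do not overlap, and at 148, 277 and 254 against 163 and 218 CPM (n = 2) at 24 h, which do. C530423 stood in CT at 184, 127 and 123 CPM at 1 h, 220.5, 175 and 130.4 CPM at 6 h and 38.8 and 62 CPM (n = 2) at 24 h, with the 24 h libraries below all others. In CC the levels of C530423 were 480.4, 391 and 301 CPM at 6 h and 197, 362 and 202 CPM at 24 h, above every CT library of the same hour.

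The difference at 6 h came with a higher level in unfed leaves than at 1 h. The mean over the 58 transcripts of log2(CPM + 0.5) was 3.72 ± 0.26 (SD, n = 3) in CC at 1 h, 4.50 ± 0.14 at 6 h and 4.37 ± 0.32 at 24 h. In PC it was 3.85 ± 0.41, 4.48 ± 0.13 and 4.42 ± 0.12 (n = 3 each). Unfed leaves were thus higher at 6 and 24 h than at 1 h, in CC and in PC without overlap between the libraries. In CT the mean went from 3.64 ± 0.24 at 1 h to 3.32 ± 0.32 at 6 h (n = 3 each) and 2.87 ± 0.17 at 24 h (n = 2). In PT it went from 3.40 ± 0.34 to 3.59 ± 0.19 and 2.90 ± 0.28 (n = 3 each). The mean thus moved more from 1 to 6 h in unfed leaves than in fed leaves, and fed leaves had their lowest means at 24 h. The rule used the 6 and 24 h libraries of these 4 groups, so the values are a description.

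**Figure D1:**
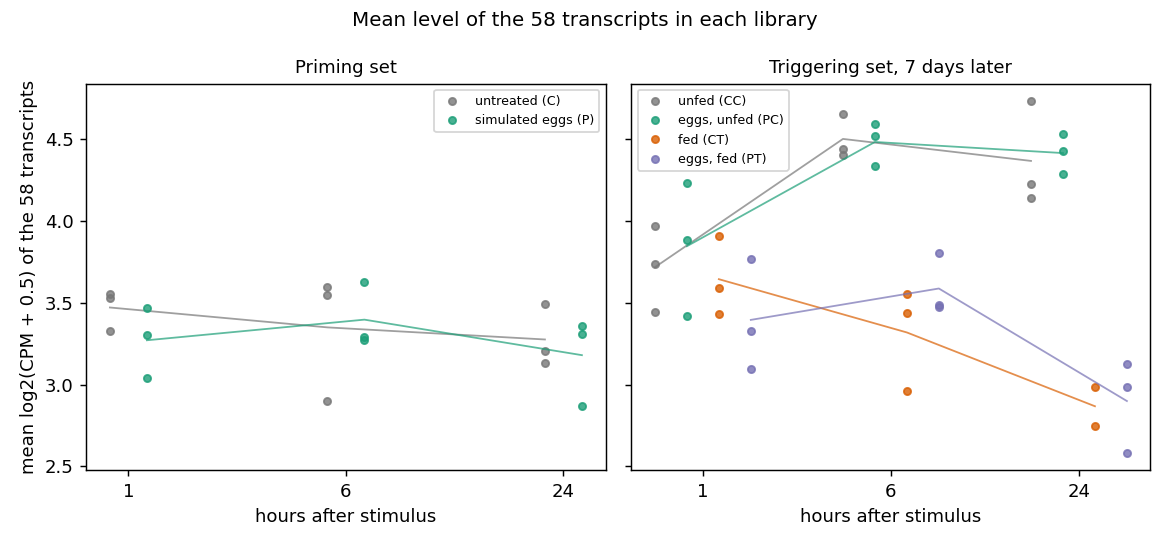
Mean log2(CPM + 0.5) of the 58 transcripts (vertical axis) in each library (points) by hours after the stimulus (horizontal axis), with lines through group means, in the priming set (left) and the triggering set (right; CT 24 h replicate 1 left out). The CC and PC libraries lie between 4.14 and 4.73 at 6 and 24 h, above every library of the priming set, while the CT and PT libraries at 24 h lie between 2.58 and 3.13.

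By transcript, the values are again a description, since the rule asked for high CC and PC and low CT and PT at 6 and 24 h and so sets part of these medians and calls. In CC, 6 h over 1 h had a median log2 fold change of 0.64 over the members against -0.01 over all transcripts; 10 members were called higher, where 1.4% of all were, and 0 lower, where 2.83% were. In PC the median was 0.52 and 7 members were called higher, where 0.812% of all were. In the fed leaves of CT, 6 h over 1 h had a median of -0.32, with 0 members called higher and 5 lower, where 2.24% and 2.76% of all were. In PT the median was 0.24, with 5 called higher and 4 lower, where 3.38% and 4.59% of all were. From 6 to 24 h, 10 members were called lower in CT (median -0.34, with 2.31% of all called lower; n = 2 at 24 h) and 10 in PT (median -0.60, 2.7%). By edgeR's test 0 members were called in CC from 6 to 24 h (median -0.13), where 2.39% of all were. In that test 7 members and 22897 of 156137 transcripts had an unadjusted p of at most 0.05.

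A week earlier the untreated leaves had not shown this rise of the mean. In C it was 3.47 ± 0.12 at 1 h, 3.35 ± 0.39 at 6 h and 3.28 ± 0.19 at 24 h (n = 3 each). At 6 h C replicate 1, the library with 32.7% of its reads in 10 sequences, stood at 2.90, and the other C libraries at 3.60 and 3.55. In P the mean was 3.27 ± 0.22, 3.40 ± 0.20 and 3.18 ± 0.27. The median log2 ratio of CC over C was 0.07 at 1 h, with 35 of 58 members higher in CC, 0.79 at 6 h, with 47 higher, and 0.98 at 24 h, with 54 higher. Set, leaf age and day of harvest differ together between CC and C and cannot be told apart, and the choice of members used CC at 6 and 24 h. The ratio of CC over C was not taken over other sequences, so it is not known whether those were also higher in CC.

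Larval feeding at 1 h was not a contrast of the rule, and there some of the members were already lower. The rule used CC at 1 h only as part of the untreated level. With the responses of CT over CC and PT over PC averaged, 11 of the 58 fell and 1 rose; over all transcripts 0.728% fell and 1.43% rose. In the window of level and simulated egg ratio, which holds 28654 sequences, 2.28% fell and 1.13% rose, against 19.0% and 1.72% of the members. The members' median log2 fold change was -0.32 (-0.18 without PC 1 h replicate 3) against 0.00 over all transcripts, and 44 of 58 members (14 not) were below 0. Within that window the median was -0.10, and 67.3% were below 0. Among 398 later fallers, sequences of that window with both ratios at or under -0.8 at 24 h and within 0.4 of 0 at 6 h, the median was -0.18, with 15 called lower and 1 higher. The difference between the 58 and the 398 was not tested. Taken singly, the members' median at 1 h was -0.14 in CT over CC and -0.60 in PT over PC. In the window these medians were -0.08 and -0.12. Below 0 were 37 of 58 members in CT over CC and 47 of 58 in PT over PC, the comparison that holds PC 1 h replicate 3.

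C191219 and C353485 had the smallest p among those that fell. At 1 h C191219 stood at 13.9, 16 and 38.7 CPM in CC and 9.45, 25.3 and 15.3 CPM in PC, and at 10.8, 7.18 and 7.71 CPM in CT and 2.56, 4.18 and 6.03 CPM in PT. Within each egg treatment every fed library was below every unfed one (log2 fold change -1.69 ± 0.30 SE, adjusted p = 0.00326). C353485 stood at 6.96, 9.43 and 7.98 CPM in CC and 8.02, 5.67 and 3.63 CPM in CT, which overlap, and at 6.44, 9.02 and 5.75 CPM in PC and 3.70, 2.75 and 2.51 CPM in PT, which do not. Its log2 fold change was -0.87 ± 0.17 SE (adjusted p = 0.00565), and PT over PC alone was called, at -1.25 ± 0.24 SE (adjusted p = 0.0427; 0.0358 with a replicate block, added after the data were seen). It was the only member called at 1 h in a single comparison. CT over CC had 0 members called and PT over PC had 1, with 0 and 0.0429% of all called lower. By edgeR, 9 lower and 3 higher members had an unadjusted p up to 0.05 in CT over CC, as had 12785 of 156137 transcripts. In PT over PC 23 lower members and 1 higher one had such a p, as had 15950 of all.

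C191219 did not keep falling evenly. In CT it stood at 15.9, 12.1 and 8.53 CPM at 6 h and 1.57 and 2.67 CPM at 24 h (n = 2), and in PT at 11.8, 18.9 and 16.5 and 6.34, 3.62 and 2.65 CPM. The means of fed leaves were thus higher at 6 h than at 1 h or 24 h, and in PT all 6 h libraries lay above all 1 h libraries (log2 fold change 1.87 ± 0.43 SE). It was named for its low fed levels at 1 h, so this step is a description. The PT libraries of C353485 were at 3.10, 4.24 and 3.12 CPM at 6 h and 4.16, 3.76 and 3.33 CPM at 24 h, close to their 1 h values.

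The 11 that fell at 1 h were 9 when contigs with neighbouring identifiers were counted once. Their median log2 fold change was -1.07 at 1 h, and all 11 were also called lower at 24 h in both comparisons, as were 30 of the 58, with medians of -2.01 in CT over CC (n = 2 in CT) and -1.92 in PT over PC. The 24 h ratios helped to choose the members, so those calls are a description. At 6 h 3 of them were called in CT over CC and 4 in PT over PC. None of the 11 was called in C between 1 and 6 h. There 10.3% of the 58 members rose and 8.62% fell, and 9.58% of all transcripts were called. With so few transcripts, a count of 0 does not set the 11 apart. None of the 11 was among the 8 of 58 members that were at least 4-fold up in PC 1 h replicate 3.

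The count of 12 depended on the libraries in the fit, as did the share of all transcripts called (2.16% in the main fit). With only the 12 libraries of 1 h fitted, 0 members and 6 of all transcripts were called (22 members with an unadjusted p up to 0.05). The adjusted p was then 0.0691 for C191219 and 0.106 for C353485. Leaving out 1 library at a time gave 5 to 16 called members. It gave 5 without CT replicate 3 (0.826% of all transcripts called) and 5 without PC replicate 2 (0.713% of all). It gave 6 each without CC replicate 3, CT replicate 2 and PT replicate 1, and 7 each without CC replicate 1 and PT replicate 2. Without PC replicate 3, the library with 8 high members, it gave 9, of which 7 were among the 12. Over all transcripts the fits with 1 library left out called 0.713 to 3.43%. The difference between the 2 feeding responses at 1 h was called for 0 members by edgeR, as for 0% of all transcripts. Its median was -0.47 against -0.05 over all. An unadjusted p at or under 0.05 was found for 1 member and for 4291 of 156137 transcripts.

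The 1 member that rose was scaffold17824. It stood at 1.14, 8.33 and 1.62 CPM in CC and 6.69, 19.3 and 7.00 CPM in CT, and at 9.97, 1.26 and 1.56 CPM in PC and 19.2, 26.8 and 11.5 CPM in PT. CC replicate 2 lay above 2 of the CT libraries, while every PT library lay above every PC library. The log2 fold change was 1.87 ± 0.50 SE (adjusted p = 0.0422), and the call was lost with only the 1 h libraries fitted (adjusted p = 0.206). It was also lost without CC replicate 1 or 3, CT replicate 2 or 3, PC replicate 2 or 3, or PT replicate 1 or 2, each left out alone (adjusted p up to 0.138). By 6 h the fed leaves were at 1.47, 1.31 and 1.54 CPM in CT and 1.24, 1.11 and 1.79 CPM in PT. All of these lay below every fed library of 1 h (6 h over 1 h, -2.92 ± 0.74 SE in CT and -3.80 ± 0.77 SE in PT). The transcript was named for its high fed levels at 1 h, and the rule asked for low fed levels at 6 h. This step is thus a description.

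**Figure D2:**
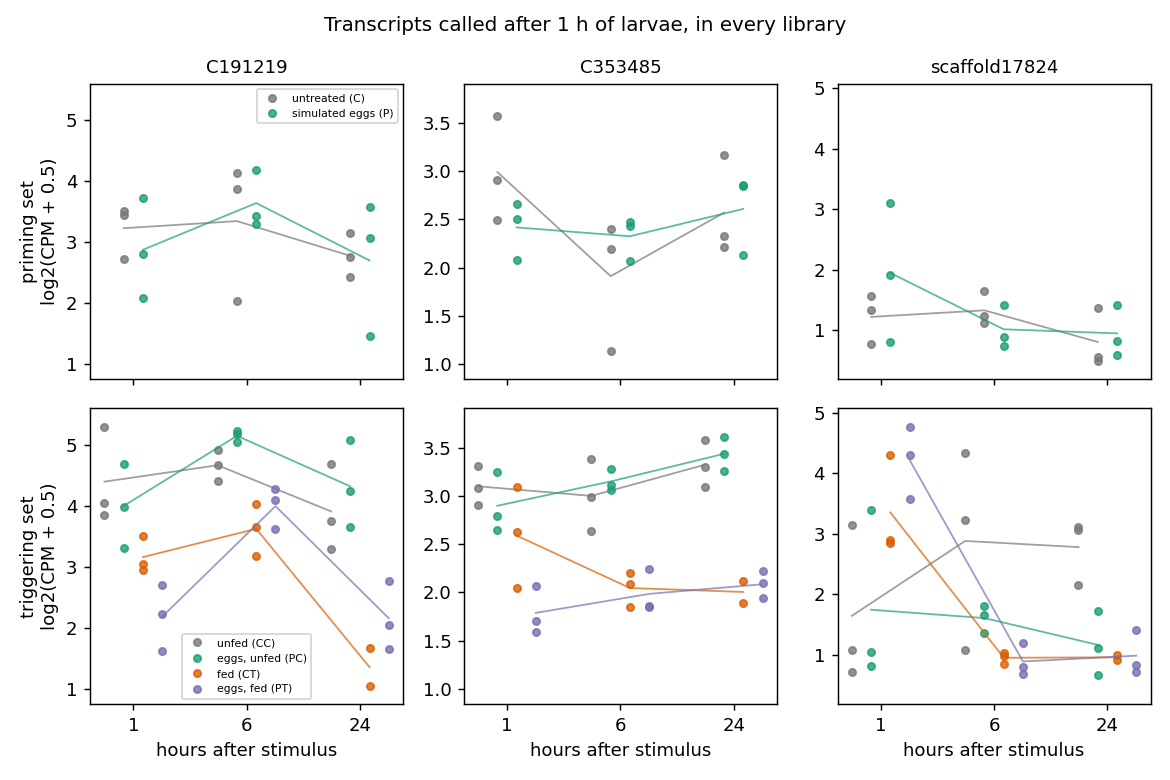
Level as log2(CPM + 0.5) (vertical axis) in every library (points) by hours after the stimulus (horizontal axis) for C191219, C353485 and scaffold17824, priming set above and triggering set below, with lines through group means. In fed leaves at 1 h C191219 and C353485 lie low (2.56 to 10.8 and 2.51 to 8.02 CPM) and scaffold17824 high (6.69 to 26.8 CPM).

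The rule used the untreated leaves of the priming set for the level and, at 1 h, for the egg ratio. In these leaves some members were higher and others lower with the hour of harvest, counted from the stimulus. From 1 to 6 h in C, 6 of 58 rose and 5 fell, where 4.74% of 126737 tested transcripts rose and 4.85% fell, and the members' median was -0.04 against -0.05 over all. The members' shares were 10.3% and 8.62%, near the 8.62% and 10.2% of the 28654 sequences of the same level and egg window. These counts thus do not set the members apart from that window. From 6 to 24 h 5 rose and 10 fell, where 6.29% and 6.16% did, with medians of -0.05 and 0.02. Here 8.62% of the members rose and 17.2% fell, against 11.1% and 11.1% of that window, a difference that was not tested. In P, 5 of 58 members were called higher at 6 h than at 1 h and 3 lower (8.62% and 5.17%), where 3.98% and 5.24% of all transcripts and 8.10% and 9.55% of the window were. Those 5 held 4 of the 6 that rose in C, and those 3 held 2 of the 5 that fell.

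Transcripts scaffold7359 and scaffold2041 rose from 1 to 6 h with the smallest p. Transcript scaffold7359 stood in C at 16.1, 9.51 and 10.9 CPM at 1 h, 23.4, 38 and 32.7 CPM at 6 h and 11.1, 20.4 and 15.4 CPM at 24 h, with every 6 h library above all others (6 h over 1 h, 1.36 ± 0.25 SE, adjusted p = 0.00227). In P it went from 8.53, 11.1 and 10.2 CPM to 40.5, 43.3 and 37.5 and 11.6, 15.1 and 14.7 CPM. Transcript scaffold2041 went in C from 8.27, 8.32 and 6.57 CPM to 14.6, 24 and 27.6 and 10.8, 9.78 and 4.65 CPM, again with the 6 h libraries on top (1.52 ± 0.31 SE, adjusted p = 0.00504). In CC a week later scaffold2041 had the same shape, with 5.41, 6.26 and 12.3, then 33.4, 33.4 and 25.7, then 10.4, 20.1 and 10.1 CPM at 1, 6 and 24 h. Transcript scaffold7359 stayed high in CC, at 9.07, 13.3 and 30.6, then 116, 179.6 and 118, then 122, 225 and 67.8 CPM. The rule favoured high CC levels at 6 and 24 h, so the CC levels of both transcripts are a description.

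C589577 and scaffold12306 fell from 1 to 6 h in C. C589577 went from 57.6, 55.4 and 109.8 CPM to 13.1, 23.1 and 17.1 CPM, without overlap (-2.06 ± 0.38 SE, adjusted p = 0.00255), and stood at 36.5, 47.9 and 35.9 CPM at 24 h. Transcript scaffold12306 went from 43.5, 34.1 and 41.9 CPM to 18.7, 21.3 and 24 CPM (-0.90 ± 0.21 SE, adjusted p = 0.0134). Without C 6 h replicate 1 the call of scaffold12306 was lost (adjusted p = 0.0546), and 6 members were called higher and 1 lower. With only C 1 h and C 6 h fitted 21 members were called, 9 higher and 12 lower, and 12.3% of all transcripts. In the main fit 9.58% of all were called, and leaving out 1 library gave 4.82 to 7.53%. Leaving out any 1 of the 6 libraries also lowered the count of 11 members. It was 5 without C 1 h replicate 3 and 5 without C 6 h replicate 3, 6 without C 1 h replicate 1 and 6 without C 6 h replicate 2, and 7 without C 1 h replicate 2 and 7 without C 6 h replicate 1.

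From 6 to 24 h, C248619 and C450357 rose and scaffold7553 and scaffold4703 fell with the smallest p. C248619 went in C from 0.984, 0.864 and 0.592 CPM to 1.47, 4.49 and 2.59 CPM (1.84 ± 0.41 SE, adjusted p = 0.00773). C450357 went from 16.8, 22.5 and 19 CPM to 73.3, 30.7 and 39.7 CPM (1.30 ± 0.32 SE, adjusted p = 0.0152), a call lost without C 24 h replicate 1 (0.86, adjusted p = 0.0943), without C 6 h replicate 1 (adjusted p = 0.0539) and without C 6 h replicate 3 (adjusted p = 0.0591). In both the 24 h libraries lay above all 6 h libraries. Transcript scaffold7553 went from 7.87, 12 and 12.7 CPM to 4.69, 3.16 and 3.82 CPM (-1.49 ± 0.29 SE, adjusted p = 0.00351). Transcript scaffold4703 went from 77.5, 203 and 166 CPM to 28.5, 27.3 and 26.9 CPM (-2.43 ± 0.52 SE, adjusted p = 0.0066), and in P from 132, 126 and 234 CPM to 3.54, 17.3 and 19.6 CPM. Its CC 6 h libraries held 5.62, 141 and 165 CPM, so replicate 1 alone was as low as fed leaves of 24 h, which were at 5.18 and 5.30 CPM in CT (n = 2) and 5.37, 10.3 and 2.37 CPM in PT. The count of 15 from 6 to 24 h was 8 without C 24 h replicate 1 or 2. It was also 8 without C 6 h replicate 2 or 3, and 9 without C 24 h replicate 3. Over all transcripts these fits called 6.3 to 9.82%, against 12.4% in the main fit.

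The 6 members that rose by 6 h in C had a median step from 1 to 6 h of 1.31 in C, 1.11 in P, 1.50 in CC and 1.14 in PC, but of -0.50 in CT and 0.01 in PT. Their response to larvae at 1 h had a median of 0.03 (0 of 6 called). The 5 that fell by 6 h in C had a median step of -1.33 in C, -0.75 in P, 0.65 in CC and 0.13 in PC. These subsets were formed from the calls in C, so their C values are a description, and so are those of CC, PC, CT and PT at 6 h, which the rule used.

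**Figure D3:**
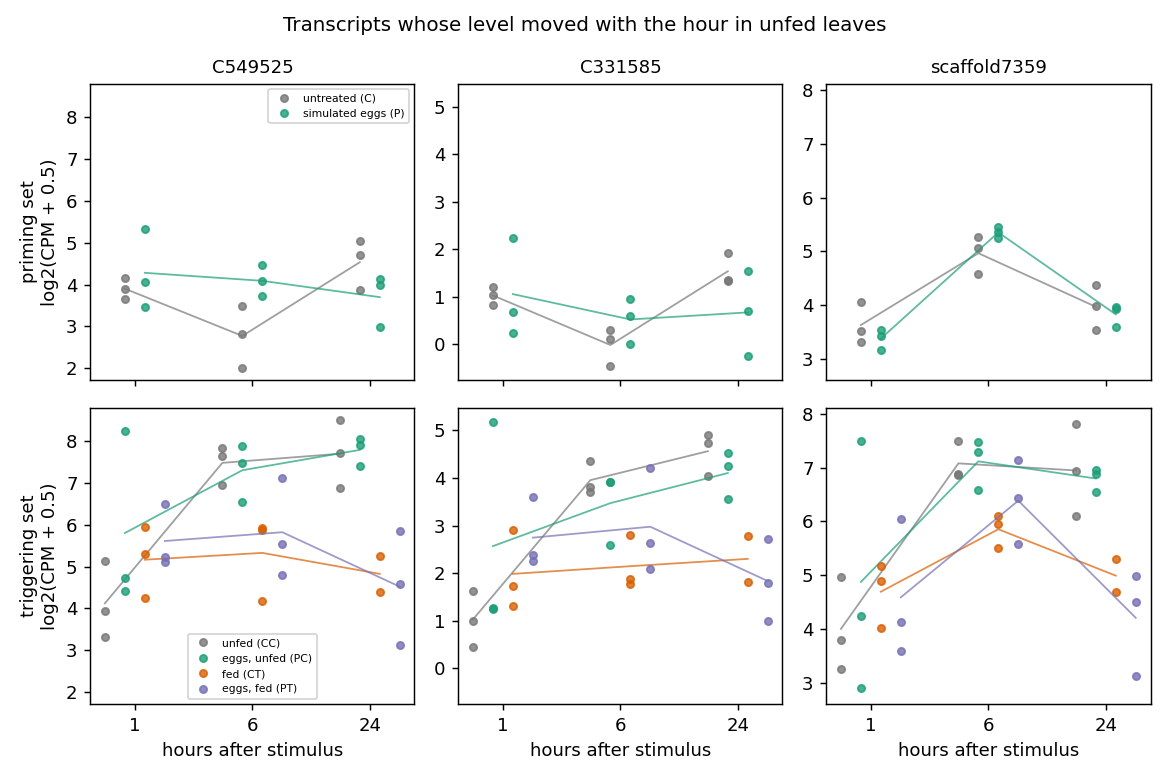
Level as log2(CPM + 0.5) (vertical axis) in every library (points) by hours after the stimulus (horizontal axis) for C549525, C331585 and scaffold7359, priming set above and triggering set below, with lines through group means. C549525 and C331585 rise from 1 to 6 h and stay high in CC, whereas in C they are lowest at 6 h; scaffold7359 is higher at 6 h than at 1 h in both, and PC 1 h replicate 3 lies far above the other PC 1 h libraries in each panel.

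The step from 1 to 6 h had opposite signs in C and in CC for some members. Of 58 members 27 had a log2 fold change above 0 in both, 11 below 0 in both, 19 below 0 in C and above 0 in CC, and 1 the reverse. C549525 went from 12, 17.4 and 14.3 CPM to 3.52, 10.7 and 6.55 CPM in C, but from 9.40, 14.7 and 34.4 CPM to 201, 228 and 123 CPM in CC. C331585 went from 1.82, 1.55 and 1.28 CPM to 0.227, 0.736 and 0.576 CPM in C, and from 0.864, 1.49 and 2.59 CPM to 13.4, 19.9 and 12.6 CPM in CC. In both the libraries of the 2 hours lay fully apart, downwards in C and upwards in CC. This held for 6 of the 58 members, against 0.57% of the 125559 transcripts tested in both sets. Since a high CC level at 6 h helped a sequence into the 58, that share is a description.

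**Figure D4:**
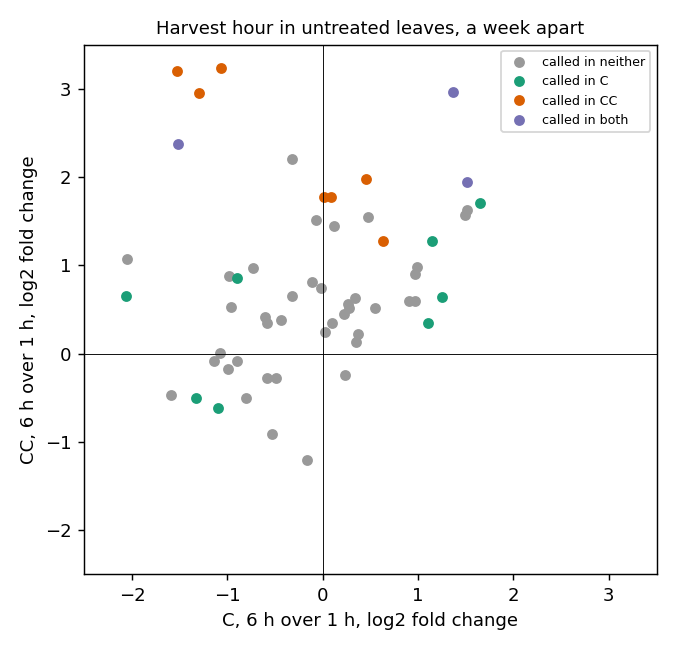
Log2 fold change from 1 to 6 h in C (horizontal axis) and in CC (vertical axis) for the 58 members (points), coloured by the set in which the step was called at an adjusted p of at most 0.05. Most points lie above 0 in CC (46 of 58), while they lie on both sides of 0 in C (28 above).

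Simulated eggs left no member past the test at 6 or 24 h, where the rule used C for the level but not this contrast. At 6 h 0 of 58 were called by edgeR and 0 by DESeq2's Wald test, where edgeR called 0.03% of all higher and 0% lower. By edgeR 3 members and 7506 of 126737 transcripts had an unadjusted p up to 0.05. The median of P over C was 0.02 against 0.00 over all. The smallest p belonged to C549525, with 12.7, 21.5 and 16.5 CPM in P and 3.52, 10.7 and 6.55 CPM in C (1.28 ± 0.47 SE, adjusted p = 0.713). At 24 h 0 were called by edgeR, where 0.0252% of all were called higher and 0% lower. By that test 2 members and 6683 of 126737 transcripts had an unadjusted p up to 0.05. The median was -0.04 against 0.00 over all. The smallest p belonged to scaffold2041, with 3.09, 3.43 and 3.05 CPM in P against 10.8, 9.78 and 4.65 CPM in C, without overlap (-1.40 ± 0.31 SE, adjusted p = 0.151). DESeq2's Wald test called that 1 member (adjusted p = 0.0113).

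A week after the simulated eggs, unfed leaves did not differ past the test either. In PC over CC at 1 h, where the rule used CC for the level only, 0 members were called by edgeR and 0 by DESeq2. Of all transcripts edgeR called 0%, and the median was 0.02 against 0.03. An unadjusted p up to 0.05 by edgeR was found for 10 members, all higher, and for 5350 of 156137 transcripts in either direction. The 10 were 1 without PC replicate 3, and 4 without CC replicate 1 or without CC replicate 2. The smallest p was that of C331585, at 1.91, 1.87 and 35.8 CPM in PC and 0.864, 1.49 and 2.59 CPM in CC (2.99 ± 0.82 SE, adjusted p = 1). PC replicate 3 alone was high, and without it the log2 fold change was 0.18.

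In fed leaves PT over CT uses libraries from which the members were chosen, although not that contrast. At 6 h 0 members were called by edgeR and 0 by DESeq2, and edgeR called 0% of all transcripts. An unadjusted p up to 0.05 by edgeR was found for 4 members, all higher, and for 8918 of 156137 transcripts in either direction. The members' median was 0.37 against -0.05 over all transcripts, with 42 of 58 above 0, but the median was 0.07 without PT 6 h replicate 3 and 0.13 without CT 6 h replicate 2. The smallest p was that of C256651, with 10.5, 8.62 and 10.4 CPM in PT above 3.54, 2.73 and 3.83 CPM in CT in every library (1.55 ± 0.54 SE, adjusted p = 0.874). At 24 h 0 were called by edgeR and 0 by DESeq2, edgeR called 0% of all, and the median was 0.07 against 0.05. By edgeR 1 member and 5614 of 156137 transcripts had an unadjusted p up to 0.05. The smallest p was that of C450357, with 25.2, 23.1 and 23.8 CPM in PT and 13.6 and 13.9 CPM in CT (n = 2; 0.81 ± 0.26 SE, adjusted p = 1).

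**Figure D5:**
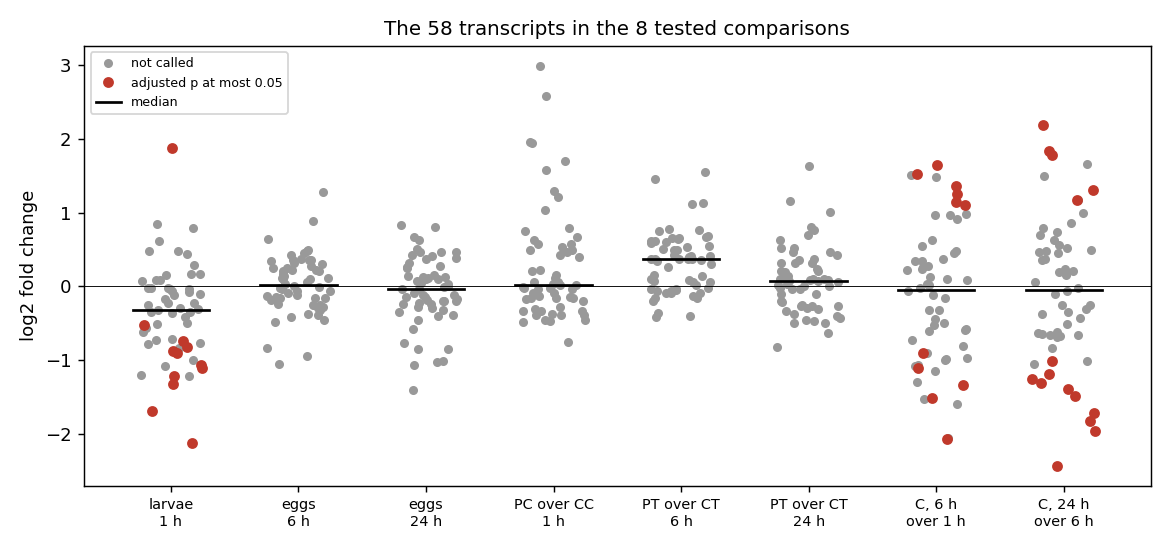
Log2 fold change (vertical axis) of the 58 members (points) in the 8 comparisons that were tested (horizontal axis), with called members in red and a bar at the median. Calls appear with larvae at 1 h (11 lower, 1 higher) and with the hour in C (6 higher and 5 lower, then 5 higher and 10 lower), and in none of the 5 comparisons of simulated eggs. From 1 to 6 h in C the called shares were near those of all sequences of the same level and egg window.

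The kind of identifier and the likeness between members were not used by the rule. Scaffolds made up 24 of 58 (41.4%), close to the 40.6% among the 28654 sequences of the same level and egg window and above the 8.76% of all sequences. Among the members, 4 pairs of contigs had identifiers that differ by 2. Their log2 levels had Pearson correlations of 0.982 (C256649 and C256651), 0.990 (C276825 and C276827), 0.983 (C369355 and C369357) and 0.964 (C452905 and C452907) over 53 libraries, and of 0.989, 0.979, 0.991 and 0.962 over the 18 of the priming set. Over all 3049 such pairs in the window the median was 0.697. With each pair counted once there were 54 members, so 1 gene may be split over several of the 58. Over all 1653 pairs of members the median correlation was 0.389 in 53 libraries and 0.115 in the 18 of the priming set, where pairs of every 20th sequence of the window had 0.0297. The points share libraries and depth, and the choice of members sets part of the first value.

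In the library left out, CT 24 h replicate 1, 52 of 58 members (89.7%) lay below all CC 24 h libraries. So did 77.5% of the 28654 sequences of the window, and 7 members (12.1%) had 0 reads there, against 16.6% of the window, in a library with reads on 62026 sequences where the others had 176736 to 221423.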

How the data were processed

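Counts were deposited by the authors as whole numbers of reads per assembled sequence and library, with 1 column for each of the 54 libraries and 0 columns unused. Per the submitters' processing notes, CASAVA and Trimmomatic 0.33 were used; for the assembly, aligner, counting program and use of strand, the sources used here give nothing. Overlapping and antisense sequences thus cannot be told apart.

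CPM were computed from the deposited counts with TMM factors of 53 libraries (edgeR 4.0.16, R 4.3.3), without CT 24 h replicate 1. Ratios used a pseudocount of 0.5 CPM. The rule of choice takes at most 200 sequences, and 58 passed it. The members, lists and tests were chosen with earlier results of these data known. Each set was filtered (filterByExpr, minimum count 10, minimum total 15), which left 156137 transcripts in the triggering set and 126737 in the priming set; all 58 members passed in both. The main test was edgeR's quasi-likelihood test (glmQLFit, glmQLFTest) with 1 mean per group over 35 triggering or 18 priming libraries, and Benjamini-Hochberg adjustment over all transcripts of a comparison. SEs are the log2 fold change over the square root of F. The procedure was tested on simulated data.

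Named are the 2 members with the lowest rule value, the 2 with the highest untreated level and, per tested comparison, up to 2 called in each direction with the smallest p or, with none called, the 1 with the smallest p. Others named beside a small count, a pair or a limit were chosen after their values were seen. Alternatives were DESeq2 1.42.0 (size factors, Wald test), TMM within the set, no filter, only the groups compared, a replicate block, CT 24 h replicate 1 included, and leaving out each library. Same-numbered libraries deviated together, which was taken as pairing, in PT and CT at 6 h (correlations 0.141, 0.182 and 0.103), in PC and CC at 1 h (0.455, 0.185 and 0.505) and in PT and PC at 1 h (0.503, 0.129 and 0.449). PT and CC at 1 h, not compared directly, also did (0.375, 0.175 and 0.470). Every correlation was also positive, some of them small, in P and C at 24 h (0.0550, 0.0207 and 0.134). The same held in CT and CC at 1 h (0.0570, 0.244 and 0.384). In the other tested comparisons with 3 pairs not every correlation was positive. Feeding at 6 and 24 h, which the rule used, was not checked.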

Additional observations from a re-analysis of the deposited data

Results flagged for a closer look

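In 6 of 58 members the libraries of 1 h and 6 h lay fully apart in opposite directions in the untreated leaves of the 2 sets. They were lower at 6 h in C and higher at 6 h in CC, as were 0.57% of the 125559 transcripts tested in both sets. In C at 6 h C331585 stood at only 0.227 to 0.736 CPM and C248619 at 0.592 to 0.984 CPM. The log2 fold change of 6 h over 1 h was -1.07 in C and 3.24 in CC for C549525, -1.53 and 3.20 for C331585, and -1.29 and 2.95 for C248619. It was -1.52 in C and 2.37 in CC for scaffold14844, -0.73 and 0.97 for scaffold6209, and -0.96 and 0.53 for C605475. The difference itself was not tested, since the sets were fitted apart and CC at 6 h was used to choose the members. C549525, C331585, C248619 and scaffold14844 were also among the 8 members that were at least 4-fold up in PC 1 h replicate 3.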

How the results depend on the processing

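No transcript named for a tested comparison changed direction in that comparison under the alternatives run; those named only for the rule value or the untreated level had none run. Of 105 alternative medians 12 had another sign than reported, in 6 comparisons whose medians lay near 0, with values from -0.19 to 0.19. Leaving out 1 library gave medians of -0.19 to 0.18 for simulated eggs at 6 h, -0.22 to 0.19 for them at 24 h, -0.23 to 0.13 for C at 6 h over 1 h and -0.15 to 0.06 for C at 24 h over 6 h. With only the groups compared in the fit, the called members went from 12 to 0 for larvae at 1 h. For C at 6 h over 1 h they went from 11 to 21. Over all transcripts the share called went from 2.16% to 0.00384% and from 9.58% to 12.3%. The cause was not tested. The DESeq2 Wald test called 1 member for simulated eggs at 24 h in place of 0. Leaving out 1 library at a time gave 5 to 16 called members for larvae at 1 h. It gave 5 to 7 for C at 6 h over 1 h and 8 to 12 for C at 24 h over 6 h. For each of the other 5 comparisons it gave 0. Over all transcripts these fits called 0.713 to 3.43% for larvae at 1 h (2.16% in the main fit). For C they called 4.82 to 7.53% at 6 h over 1 h (main 9.58%) and 6.3 to 10.3% at 24 h over 6 h (main 12.4%). For larvae at 1 h, DESeq2 size factors and the DESeq2 Wald test called 12 and 16 members, with all 12 reported ones among them. With a replicate block, 12 members were called for larvae at 1 h (10 shared), 12 and 16 for the hour in C, and 0 for the comparisons of simulated eggs, so it changed no count of called members by over 1.5 times. For the named transcripts 199 of 215 alternative values kept their side of the threshold, 15 lost a call and 1 gained one. Of 105 medians 104 moved by less than a spread, the pooled SD within groups of the libraries' mean log2 level of the members. The 12 medians with another sign stayed within that spread. Over all transcripts, larvae at 1 h gave 3365 calls, against 6 with only the groups compared, 1694 with CT 24 h replicate 1 included and 5487 by DESeq2. Simulated eggs gave 38 calls at 6 h, against 120 with the replicate block, 98 with only the groups compared and 498 by DESeq2; at 24 h they gave 32, against 629, 0 and 234, and 85 with no filter. PT over CT at 24 h gave 0, against 51 with CT 24 h replicate 1 included and 4 by DESeq2; at 6 h it gave 0, against 3 with the block and 4 by DESeq2. PC over CC at 1 h gave 0, against 2 with the block and 93 by DESeq2. With 3 libraries a group and as few as 28916592 reads, members near 2 CPM are the least certain, and a p that misses the threshold does not show that levels were equal.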
